A study of Mus musculus with 6 samples.

Results

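Respiratory complex I was described here through the genes that encode its subunits and the factors that assemble it. They were found by symbol: 47 rows of the 32285-row count table began with Nduf followed by a, b, c, s or v. Of these rows, 1 with -ps in its symbol (Ndufb1-ps) was left out for that symbol alone. Whether it encodes a subunit was not examined, and its values are given at the end. The other 46 genes remained. Of these, 36 encode complex I subunits, 8 encode assembly factors (Ndufaf1 to Ndufaf8), and the other two are Ndufa4 and its paralog Ndufa4l2. Ndufa4 carries a complex I name, but its protein is now assigned to complex IV, so it was set beside the other members. The symbol rule itself uses no measured value.

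Complex I (NADH:ubiquinone oxidoreductase) is the entry point of electrons from NADH into the respiratory chain and pumps protons across the inner mitochondrial membrane. It has a peripheral arm in the matrix, in which the N module oxidizes NADH and the Q module passes electrons to ubiquinone, and a membrane arm that pumps. Conserved core subunits carry out catalysis, accessory subunits surround them, and assembly factors join the modules without remaining in the finished enzyme. Regulatory T cells (Tregs), the CD4+ cells that restrain other immune cells, are known to draw strongly on mitochondrial respiration.

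The samples were CD4+CD25+ Tregs sorted from the spleens of C57BL/6 mice, and RNA-seq libraries of the TruSeq type were made from their total RNA. There were 3 WT and 3 KO libraries. KO mice carried ERCre, a Cre recombinase fused to an estrogen receptor domain, and the floxed allele Zfp335fl/fl; Zfp335 is a zinc finger transcription factor. By the study's methods, WT controls also carried ERCre, and tamoxifen at 10 mg/mL was injected 3 times into 6-week-old mice that were killed on day 7, whereas the sample labels name only wild-type littermates as controls and are silent on tamoxifen. ERCre is not restricted to Tregs, so the cells around them could also have lost the gene. The labels do not say whether a library came from 1 mouse or from a pool, so the tests measure the spread between these libraries, which may be technical.

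The libraries held between 133283969 and 209041812 counts, and scaling factors (trimmed mean of M-values, TMM) lay between 0.987 and 1.01. Zfp335 fell from 115 to 124 CPM (counts scaled to the TMM-adjusted library size) in WT to 14.3 to 15.1 CPM in KO. Foxp3 and Il2ra, which define Tregs, were detected in every library and were called slightly lower in KO (log2 fold change -0.11 and -0.15). Of 6 Treg markers, 2 were lower and 2 higher, and their summed level was 3266 to 3318 CPM in WT and 3374 to 3424 CPM in KO; Ctla4 alone was at 401 to 419 CPM in WT and 636 to 654 CPM in KO. The summed markers of B cells, myeloid cells and red cells were lower in KO: summed B cell markers were 38.5 to 42.4 CPM in WT and 19.1 to 20.8 CPM in KO (4 of 4 lower), summed myeloid markers 37.7 to 43.2 and 20.0 to 21.9 CPM (4 of 5 lower), and summed red cell markers 35.8 to 42.8 and 1.67 to 2.15 CPM (4 of 4 lower). The remaining myeloid marker, Csf1r, was not called (log2 fold change 0.22, adjusted p = 0.0821, edgeR), with every KO library above every WT library. CD8 T cell and NK cell markers gave 0 calls of 2 each, beside 12.1% lower and 12% higher of all genes tested. None of these markers had an unadjusted p under 0.05. Xist, the RNA of the inactive X chromosome, was at 0.187 to 0.424 CPM in WT and 124 to 145 CPM in KO, so the sex of the mice and the genotype cannot be told apart. The part of these cells and of sex in the results was not tested, and in bulk RNA fewer cells of a type and less RNA per cell cannot be told apart.

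Complex I transcripts differed little between WT and KO Tregs. Of the 44 complex I members, 4 were lower in KO (Ndufv2, Ndufab1, Ndufaf1 and Ndufa9), 2 were higher (Ndufb6 and Ndufc2) and 38 did not pass the test. A call was a p under 0.05 in the quasi-likelihood test of edgeR, adjusted by Benjamini-Hochberg across the 17307 genes tested; of all these, 12.1% were called lower and 12% higher, against 9.09% and 4.55% of the 44 members. The members' log2 fold changes (KO over WT) had a median of -0.0064 and ran from -0.25 to 0.22, with 23 below and 21 above 0; the median of all genes tested was -0.0042. Every member's 95% interval lay within a 1.5-fold change in either direction, which held for 62.0% of all genes tested. For 30 of the 44 the interval lay within 1.2-fold, against 6484 of the 17307 genes tested. Genes with low counts have wider intervals, and the members were not compared with genes of like counts.

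Ndufa4 fell further than any of the 44 complex I members. It encodes a small subunit of cytochrome c oxidase (complex IV). Its level was 40.0, 46.7 and 43.7 CPM in the WT libraries and 27.3, 27.2 and 26.3 CPM in the KO libraries. All KO libraries lay below all WT libraries, and the gap between the groups exceeded the spread within either. The mean fell from 43.5 ± 3.40 CPM (SD, n = 3) to 26.9 ± 0.563 CPM (SD, n = 3), a log2 fold change of -0.69 (SE 0.056, 95% interval -0.81 to -0.57, adjusted p = 1.39e-06 in edgeR's quasi-likelihood test) or a decrease of 38.0%. The interval lay below that of Ndufaf1, the complex I member with the largest decrease (-0.43 to -0.08). Ranked over all genes tested, Ndufa4 was number 1258 from the strongest decrease, so 7.27% of genes fell at least as far. By the stricter rule of a change of at least 1.5-fold with p under 0.05 and adjusted p under 0.1, it was the only one of 45 tested members called; 4.37% of all genes were called lower and 2.58% higher by that rule.

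**Figure D1:**
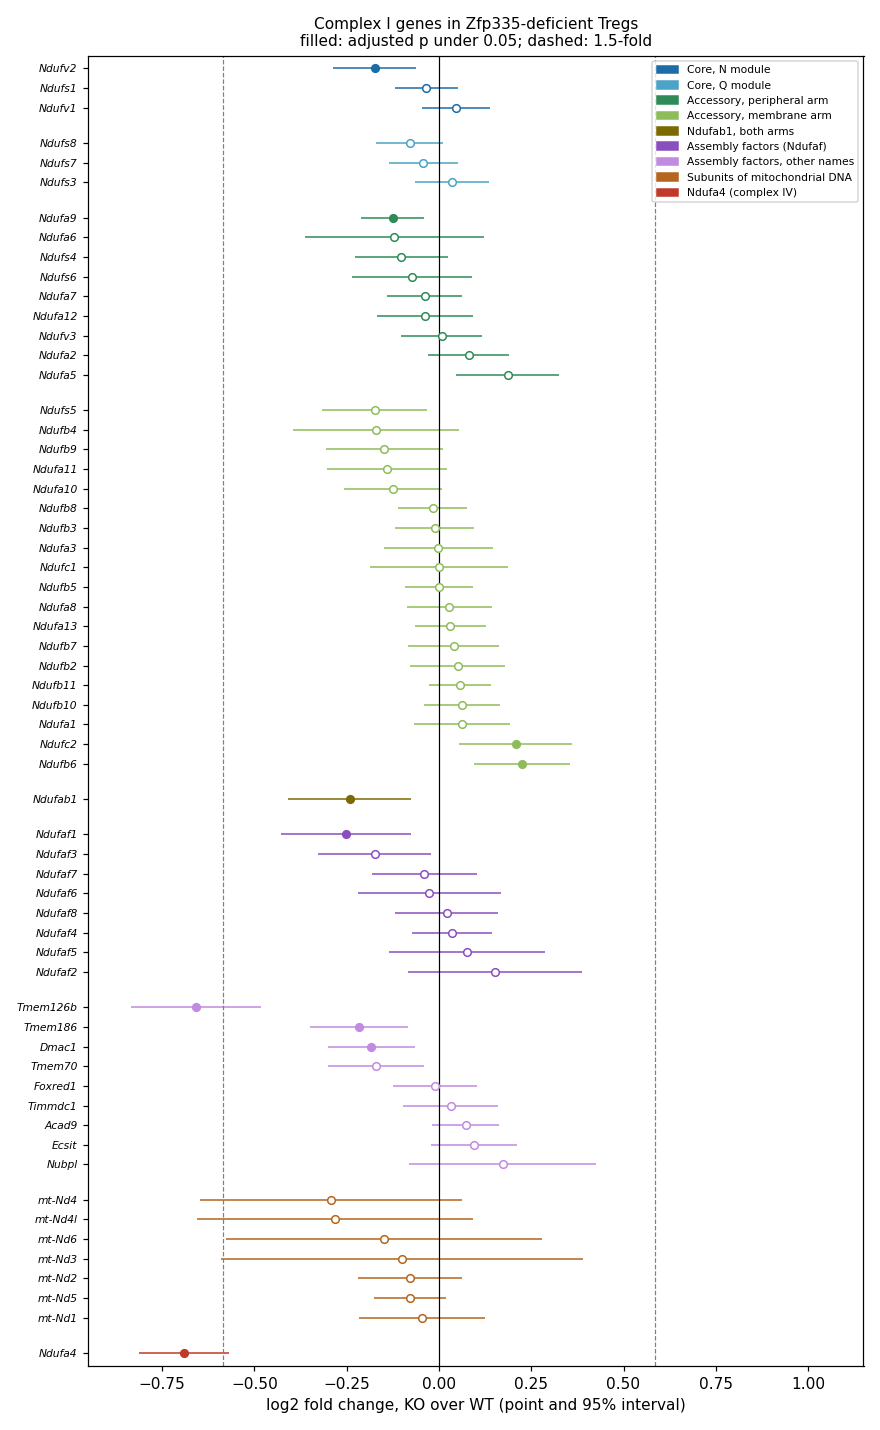
Log2 fold change (KO over WT, x axis) of the complex I genes reported by name, of assembly factors with other names and of Ndufa4, with 95% intervals from edgeR; filled points had an adjusted p under 0.05 and dashed lines mark 1.5-fold. The complex I members lie between -0.25 and 0.22, whereas Ndufa4 lies at -0.69 and the assembly factor Tmem126b at -0.66.

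Per length, Ndufa4 stood nearer to the complex I subunits in KO than in WT. Counts were divided by transcript length and scaled to a fixed total per library (a TPM-type level); 1 transcript was used for each gene, so a gene with several isoforms may be misplaced. Ndufa4 was at 1.73, 2.05 and 1.85 times the median subunit in the WT libraries and at 1.12, 1.09 and 1.14 times in the KO libraries. The subunit sum itself was 3480 to 3556 in WT and 3354 to 3512 in KO on this per-length scale, so the groups overlapped. Ndufa4l2, a paralog known to be induced in hypoxia, had counts of 0, 0 and 4 in WT and 0, 4 and 0 in KO and did not pass the filter on low counts.

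Ndufa4 lies on the minus strand of chromosome 6 at 11900292 to 11907497 (GRCm38, the build also called mm10), and none of its 50-base stretches occurs in another annotated gene. Its upstream bases are printed with those of 3 members for comparison: Ndufv1, a core subunit with no call; Ndufv2, a core subunit that was lower; and Ndufb6, an accessory subunit that was higher. Sequences are from RefSeq promoter windows (GRCm38.p6), given 5′ to 3′ on the gene's strand and cut at the annotated start of the gene. Capitals mark letters of an NRF1 core (TGCGCA), an ETS core (CCGGAA) or a GC box (GGGCGG) on either strand.
Ndufa4, chr6:11907498-11907700, minus strand: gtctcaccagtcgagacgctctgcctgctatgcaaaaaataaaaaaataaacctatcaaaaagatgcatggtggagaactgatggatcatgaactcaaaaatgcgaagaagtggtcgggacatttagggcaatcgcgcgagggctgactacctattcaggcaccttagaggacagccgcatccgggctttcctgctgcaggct
Ndufv1, chr19:4012807-4013005, minus strand: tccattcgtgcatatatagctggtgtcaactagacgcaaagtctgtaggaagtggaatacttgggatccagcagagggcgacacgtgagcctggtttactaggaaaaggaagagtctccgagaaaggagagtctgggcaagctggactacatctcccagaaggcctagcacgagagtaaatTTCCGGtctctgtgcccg
Ndufv2, chr17:66101560-66101809, minus strand: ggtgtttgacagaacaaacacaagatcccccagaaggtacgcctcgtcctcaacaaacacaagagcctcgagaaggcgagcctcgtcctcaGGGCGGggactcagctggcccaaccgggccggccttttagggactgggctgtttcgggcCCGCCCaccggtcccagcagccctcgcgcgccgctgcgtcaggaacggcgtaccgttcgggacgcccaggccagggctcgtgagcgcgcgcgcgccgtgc
Ndufb6, chr4:40279422-40279671, minus strand: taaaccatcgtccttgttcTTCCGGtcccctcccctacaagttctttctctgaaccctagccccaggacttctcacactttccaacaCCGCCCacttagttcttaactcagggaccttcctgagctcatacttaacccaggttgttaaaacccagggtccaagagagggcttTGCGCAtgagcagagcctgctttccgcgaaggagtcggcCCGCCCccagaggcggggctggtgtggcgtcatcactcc

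NRF1 and GABP (an ETS factor) are known regulators of nuclear genes for respiration, and YY1 and Sp1 (which binds GC boxes) are known at many such promoters. Windows from 250 bases before to 50 bases after the start were searched on both strands; 40 of the 46 genes had one, and 39 complex I genes had 41. The NRF1 core TGCGCA was in 12 of the 41 windows (29.3%), against 7.76% of all 32851 windows in the table. The ETS core CCGGAA was in 12 (29.3%), against 14.9%, the YY1 letters AAGATGGCG in 6 (14.6%), against 1.40%, and the GC box GGGCGG in 22 (53.7%), against 35.7%. No motif here contains another. At least 1 of the 4 was in 33 windows (80.5%), against 44.6% of all windows, and the window of Ndufa4 held none of them. These matches describe letters only and say nothing of binding.

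The 7 nuclear core subunits hold the cofactors or the quinone site. Only Ndufv2 of these was called, beside 12.1% lower and 12% higher of all genes tested. Ndufv2, an iron-sulfur protein of the N module, was at 39.6, 43.2 and 45.6 CPM in WT and 38.9, 38.0 and 36.8 CPM in KO. Its groups did not overlap, but WT1 and KO1 were close. The log2 fold change was -0.17 (SE 0.052, adjusted p = 0.0278, edgeR), a decrease of 11.4%. Ndufv1, which binds NADH and flavin next to Ndufv2, was at 70.2, 71.6 and 64.6 CPM in WT and 71.8, 71.7 and 70.0 CPM in KO. These groups overlapped, and the log2 fold change was 0.05 (95% interval -0.05 to 0.14, adjusted p = 0.485, edgeR). Ndufs1, the large iron-sulfur subunit of the N module, was at 63.9, 64.2 and 65.7 CPM in WT and 61.2, 62.6 and 65.5 CPM in KO. Its groups overlapped too, with a log2 fold change of -0.03 (95% interval -0.12 to 0.05, adjusted p = 0.591, edgeR). Its exons overlap Eef1b2 and Ino80dos on the opposite strand, so reads could be shared.

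In the Q module, 0 of 4 core subunits were called, beside 12.1% lower and 12% higher of all genes tested. The count was also 0 by DESeq2 and by limma-voom. An unadjusted p under 0.05 in edgeR was found for 0 of 4, beside 6012 of the 17307 genes tested. Ndufs3 was at 51.8, 51.9 and 53.0 CPM in WT and 57.2, 52.6 and 50.9 CPM in KO (log2 fold change 0.04, 95% interval -0.06 to 0.14), and its estimate was -0.01 without KO1. Of its 50-base stretches, 39.7% occur in other annotated genes, among them Kbtbd4 on the opposite strand, so its counts are uncertain. The iron-sulfur subunits Ndufs7 and Ndufs8 had log2 fold changes of -0.04 (-0.14 to 0.05) and -0.08 (-0.17 to 0.01). The groups of these 3 genes overlapped.

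Of the 9 accessory subunits of the peripheral arm, 1 was lower and 0 were higher, beside 12.1% and 12% of all genes tested. Their median log2 fold change was -0.04. Ndufa9, which sits near the junction of the arms and the quinone site, was at 51.7, 52.6 and 54.3 CPM in WT and 47.2, 48.8 and 49.4 CPM in KO. The groups were separate by a narrow margin, with a log2 fold change of -0.13 (SE 0.040, adjusted p = 0.0357, edgeR). Its exons overlap 1700018A23Rik on the opposite strand. Named after its values were seen, Ndufa5 was at 10.7 CPM in each WT library and at 11.5, 12.8 and 12 CPM in KO; its groups did not overlap, but it missed the call (log2 fold change 0.19, adjusted p = 0.0518, edgeR). It was called higher in 4 alternatives: DESeq2, a minimum of 1 CPM in 3 libraries, counts divided by 4, and the GC trend removed. Ndufa6, also singled out afterwards, had the widest WT spread of this group, at 47.4, 54.5 and 64.5 CPM, with all KO libraries between 49.4 and 52.7 CPM.

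Ndufab1, the mitochondrial acyl carrier protein, is found in both arms and also serves fatty acid synthesis in the matrix. It was at 25.1, 28.3 and 32.7 CPM in WT and 23.9, 23.9 and 24.5 CPM in KO. The WT libraries were far more spread than the KO libraries, and WT1 lay just above KO. The log2 fold change was -0.24 (SE 0.076, adjusted p = 0.0369, edgeR), and without WT3 it was -0.15 (adjusted p = 0.0875). Of its 50-base stretches, 12.3% occur in other annotated genes, so its counts could be shared with those copies.

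Of the 19 accessory subunits of the membrane arm, 0 were lower and 2 were higher, beside 12.1% and 12% of all genes tested. Their median log2 fold change was 0.0007. Whether the classes of subunits differ from each other was not tested. Ndufb6, a small membrane subunit, was at 23.6, 21.4 and 20.3 CPM in WT and 25.7, 26.5 and 24.3 CPM in KO. All KO libraries were above all WT libraries (log2 fold change 0.22, SE 0.060, adjusted p = 0.016, edgeR). Its exons overlap Smim27 on the opposite strand, and 34.1% of its 50-base stretches are shared with that gene, so reads of the pair cannot be told apart if strand was not used in counting. Ndufc2, also a membrane arm subunit, was at 15.4, 14.8 and 13.5 CPM in WT and 17.8, 17.5 and 15.3 CPM in KO. Its groups overlapped, since KO3 lay below WT1, and the call was near the threshold (log2 fold change 0.21, SE 0.071, adjusted p = 0.0495, edgeR).

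The X-linked members Ndufa1 and Ndufb11, both membrane arm subunits, are given because Xist differed between the groups. Ndufa1 was at 16.0, 15.5 and 16.8 CPM in WT and 17.0, 17.4 and 15.7 CPM in KO (log2 fold change 0.06, 95% interval -0.07 to 0.19, adjusted p = 0.507, edgeR). Ndufb11 was at 57, 56.0 and 60.1 CPM in WT and 60.0, 60.3 and 59.6 CPM in KO (log2 fold change 0.06, 95% interval -0.03 to 0.14, adjusted p = 0.331, edgeR). Both overlapped between the groups. Ndufb11 overlaps the exons of Rbm10 on the opposite strand.

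Among the 8 Ndufaf assembly factors, 1 was lower and 0 were higher, beside 12.1% and 12% of all genes tested. Ndufaf1, a factor that builds part of the membrane arm, was at 7.61, 7.90 and 7.74 CPM in WT and 7.05, 5.94 and 6.59 CPM in KO. All KO libraries were below all WT libraries, and KO2 was the lowest. Its log2 fold change of -0.25 (SE 0.081, adjusted p = 0.0386, edgeR), a decrease of 16.0%, was the largest decrease of the 44 members. The other 7 ranged from -0.17 (Ndufaf3) to 0.15 (Ndufaf2).

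**Figure D2:**
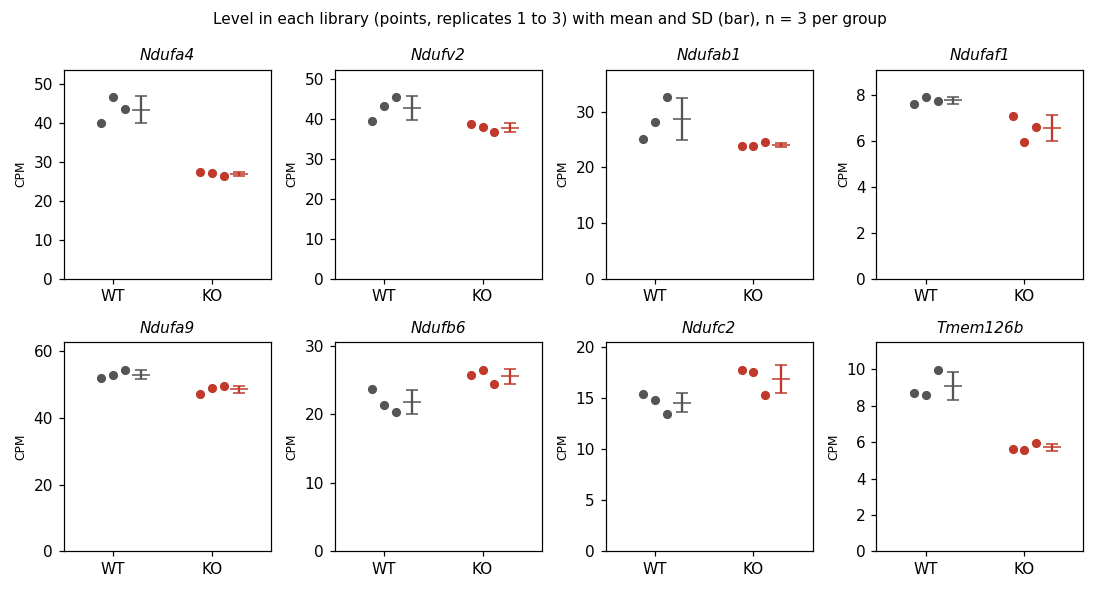
Level in CPM (y axis, from 0) of the called members and of Tmem126b in each WT and KO library (points, replicates 1 to 3), with the mean and SD of each group (bar, n = 3). Ndufa4 and Tmem126b have a wide gap between the groups, the other genes a narrow one, and Ndufc2 overlaps.

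Counting overlap instead of p, 7 of the 44 members had every KO library below every WT library and 2 had every KO library above, while 35 overlapped. Over all genes tested, 19.1% were separate downwards and 19.3% upwards. The 7 were the 4 called lower together with Ndufs5, Ndufb4 and Ndufaf3, and the 2 were Ndufb6 and Ndufa5. Of the 50-base stretches of Ndufs5 and Ndufb4, 31.1% and 37.0% occur in other annotated genes. WT3 was the highest library for 18 of the 44 members and the lowest for 11, more than any other library. The median SD of log2 CPM over the members was 0.0748 in WT and 0.0506 in KO, and it was larger in WT for 30 of 44; over all genes it was 0.0996 and 0.0680, with WT larger for 64.1%.

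Each called member other than Ndufa4 lost its call in some of the fits with a library left out. Those fits also had fewer replicates. Whether the loss came from a given library or from fewer replicates was not tested. Leaving out WT2, WT3, KO2 or KO3 left 0 of 44 members called lower, leaving out KO1 left 1 (Ndufaf1), and leaving out WT1 gave 10; the share of all genes called lower was 7.88%, 11.5%, 7.9% and 8.29% without WT2, WT3, KO2 and KO3, 8.06% without KO1 and 14.1% without WT1. At an unadjusted p under 0.05 in those fits, 4 to 12 of 44 were lower and 1 to 5 higher. The share of all genes at that cut was not counted in those fits, so these counts have no background beside them. With all 6 libraries, 9 of 44 members passed that cut in either direction, beside 6012 of the 17307 genes tested. For higher calls the count was 0 without WT2, KO1 or KO2, 1 without WT3, and 2 without WT1 or KO3, beside 7.55% to 14.1% of all genes. Ndufa4 was called in all 20 alternative settings, at a log2 fold change between -0.75 and -0.63.

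**Figure D3:**
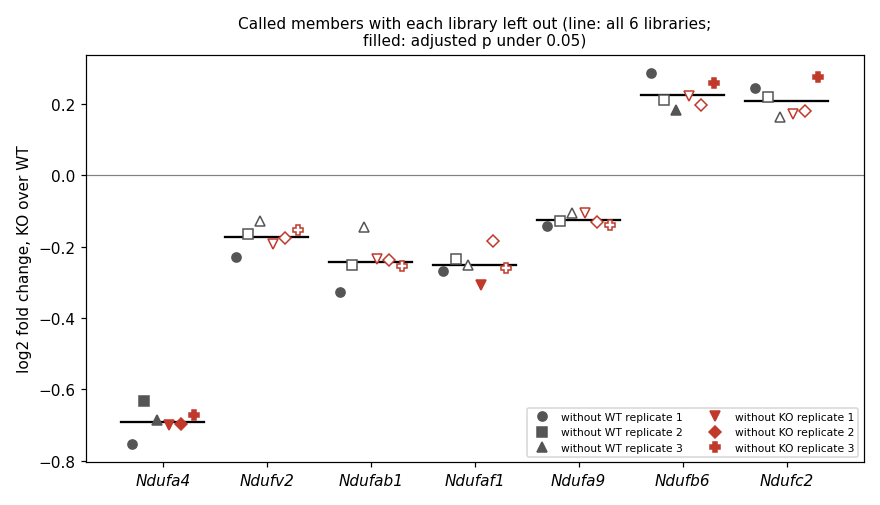
Log2 fold change (KO over WT, y axis) of each called member with all 6 libraries (line) and with each library left out in turn (symbols, filled where the adjusted p stayed under 0.05). Ndufa4 stays between -0.75 and -0.63 and filled throughout, whereas Ndufv2, Ndufab1 and Ndufa9 are filled only without WT1.

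Per length, the subunits were far above the assembly factors. The median TPM-type level in WT was 115 for the Q module core, 57.8 for the N module core, 77.8 for the peripheral and 88.6 for the membrane accessory subunits, and 14.0 for the Ndufaf factors. Single subunits ran from 7.53 (Ndufb2) to 292 (Ndufb7), both in the membrane arm. The transcript used for Ndufb2 had 4371 bases, against 623 for Ndufb7, so the level of Ndufb2 may be misplaced if a shorter isoform was expressed. KO medians were 113, 53.7, 72.7, 90.4 and 13.6 in the same order. The levels of the groups thus kept their order in KO.

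**Figure D4:**
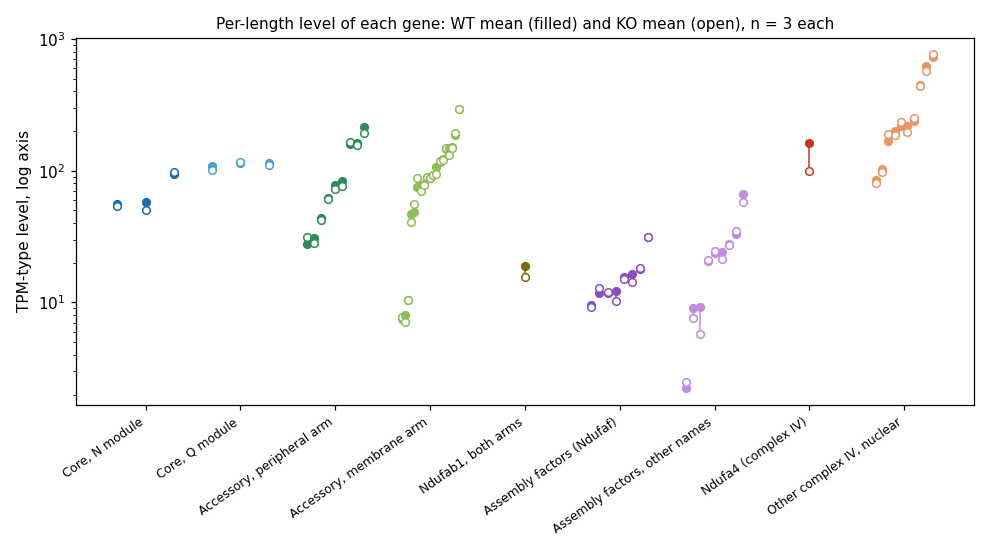
TPM-type level per gene on a log axis, with the WT mean (filled) and the KO mean (open, n = 3 each) joined by a line, for the complex I genes reported by name in each class, Ndufa4 and other nuclear complex IV genes. Ndufa4 drops from 163 to 100, and most other pairs of points nearly coincide.

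Among assembly factors without an Nduf name, Tmem126b fell further than any of the 44 complex I members. Of 10 listed, 9 were measured, and 3 were lower and 0 higher, beside 12.1% and 12% of all genes tested. DESeq2 called 4 lower and 0 higher, beside 12.7% and 12.9% of all genes. The median log2 fold change of the 9 was -0.01, with 5 below and 4 above 0. Tmem70 missed the call in edgeR (-0.17, adjusted p = 0.0548), although every KO library was below every WT library. Tmem126b, a membrane protein that acts with Ndufaf1 in building the membrane arm, was at 8.69, 8.57 and 9.98 CPM in WT and 5.61, 5.59 and 5.94 CPM in KO. The groups were well apart, with a log2 fold change of -0.66 (SE 0.082, adjusted p = 6.35e-05, edgeR), and 7.82% of all genes fell at least as far. It was called in all 20 alternative settings, at -0.70 to -0.59. Tmem186, from the same assembly complex, had a log2 fold change of -0.22 (adjusted p = 0.0213, edgeR), and Dmac1, also known in membrane arm assembly, one of -0.18 (adjusted p = 0.0267, edgeR). Ecsit, Acad9 and Timmdc1, which also act with Ndufaf1, were not called, at 0.09 (95% interval -0.02 to 0.21), 0.07 (-0.02 to 0.16) and 0.03 (-0.10 to 0.16).

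The 7 complex I subunits encoded in mitochondrial DNA gave 0 calls by edgeR, DESeq2 and limma-voom. In edgeR, 12.1% of all genes tested were called lower and 12% higher, so 0 calls among 7 genes says little. An unadjusted p under 0.05 in edgeR was found for 0 of 7 (1 of 7 in DESeq2), beside 6012 of the 17307 genes tested. The log2 fold changes of the 7 lay between -0.29 and -0.05, all below 0, and all 7 overlapped between the groups. Their 95% interval lay within 1.5-fold for only 4 of the 7, so they were less well resolved than the 44 members, where all 44 did. The most negative, mt-Nd4, a proton-pumping subunit, was at 1284, 1522 and 1777 CPM in WT and 1272, 1162 and 1308 CPM in KO (95% interval -0.65 to 0.06, adjusted p = 0.211, edgeR). The 7 together took 0.528%, 0.599% and 0.669% of all counts in WT and 0.535%, 0.511% and 0.553% in KO, so WT1 lay among the KO libraries and WT3 stood highest.

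Of 10 other nuclear complex IV subunits, 0 were lower and 2 were higher, beside 12.1% and 12% of all genes tested. DESeq2 called 1 lower and 2 higher, beside 12.7% and 12.9% of all genes. An unadjusted p under 0.05 in edgeR was found for 4 of the 10, beside 6012 of the 17307 genes tested. The log2 fold changes of the 10 subunits ran from -0.15 to 0.21 with a median of -0.04. Cox6c was at 51.3, 53.9 and 57 CPM in WT and 60.8, 63.8 and 62.7 CPM in KO (log2 fold change 0.21, adjusted p = 0.00383, edgeR). Cox5b, the other one called, had a log2 fold change of 0.12 (adjusted p = 0.0368, edgeR). The difference between Ndufa4 and these genes was not tested as such; its 95% interval, -0.81 to -0.57, lies below the lowest of their estimates.

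Each of the 45 tested members had at least 436 counts in every library (Ndufb4 in WT3), and Ndufa4 had between 4871 and 8905. The sources used here do not say whether duplicate reads were removed, so counts may not be independent molecules.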

How the data were processed

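The authors deposited 1 table of raw counts per gene for 6 libraries of sorted Tregs (3 WT, 3 KO). The submitters' processing notes name HISAT2, DESeq2 and mm10; the counter and its strand setting are not given in the sources used here. Of 32285 rows, 40 repeated a symbol, and the row with most counts kept the name. Genes passing filterByExpr (17307) were fitted with edgeR 4.0.16 (TMM scaling, robust quasi-likelihood fit, genotype only) in R 4.3.3, with Benjamini-Hochberg adjustment over all of them; the fit was tested on simulated data. Members and lists were chosen with earlier results of these data known. Named were Ndufa4, Ndufa4l2, the core subunits (values of 1 member are not reported here), the X-linked members, the other members called at an adjusted p under 0.05, and up to 3 called genes per direction in other lists. CPM used TMM-scaled library sizes. Lengths, GC content and shared 50-base stretches came from GENCODE vM21 (a length for 98.7% of tested genes and 100% of members). Alternatives were other scalings and filters, counts divided by 4, DESeq2 1.42.0, limma-voom (limma 3.58.1), the legacy edgeR method, length and GC trends, a replicate block, the 1.5-fold rule, and leaving out each library.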

Additional observations from a re-analysis of the deposited data

How the results depend on the processing

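The decrease of Ndufa4 kept its direction and call in all 20 alternatives (log2 fold change -0.75 to -0.63, adjusted p 1.80e-27 to 5.30e-05). The count of 4 complex I members called lower was 0 under the 1.5-fold rule and 0 to 10 with a library left out, and the other alternatives kept it within 1.5-fold. The count of 2 called higher was 1 with scaling by library size only or by the upper quartile, with the legacy edgeR method and with limma-voom, 0 under the 1.5-fold rule and 0 to 2 with a library left out; it was 3 with DESeq2, a minimum of 1 CPM in 3 libraries, counts divided by 4 and the GC trend removed, and 2 in the other alternatives. The members' median moved beyond the replicate SD of 0.0301 with library size only, to -0.0372, where the median of all genes was -0.0349. That scaling called 2575 genes lower and 1622 higher, against 2088 and 2082. With a library left out, the log2 fold change of Ndufs3 ran from -0.0119 (without KO1) to 0.0729 (without KO3). Of 20 alternatives, Ndufv2, Ndufaf1, Ndufab1 and Ndufa9 each lost the call in 6, Ndufb6 in 3 and Ndufc2 in 8.

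The replicate numbers are not stated to pair the libraries. Same-numbered WT and KO libraries deviated from their group means with correlations of 0.0284, 0.00819 and 0.0326. Differently numbered libraries gave -0.0372 to 0.0188. All these values are near 0 and cannot decide whether libraries were paired. With the replicate block, 4 members were lower and 2 higher, and Ndufa4 was at -0.69 (adjusted p = 3.31e-06, edgeR); the block with a GC or a length trend removed gave 3 lower and 2 higher. With a library left out, calls over all genes ran from 1399 lower and 1341 higher (without WT2) to 2501 and 2495 (without WT1). The cause of the other changes was not tested.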

Other observations

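Beyond the lists, 3 related genes were looked at after their values were seen. Cox7a2l, known for its part in joining respiratory complexes into supercomplexes, was at 211, 220 and 229 CPM in WT and 164, 157 and 164 CPM in KO, a log2 fold change of -0.44 (adjusted p = 1.86e-06, edgeR's quasi-likelihood test). Dmac2, known in complex I assembly, was at 46.6, 43.9 and 42.8 CPM in WT and 54.1, 52.7 and 53.8 CPM in KO, a log2 fold change of 0.27 (adjusted p = 0.00049, edgeR). The groups of both did not overlap. Ndufb1-ps, the row left out of the members, was at 9.03, 10.5 and 10.9 CPM in WT and 10.5, 10.6 and 10.4 CPM in KO, with a log2 fold change of 0.06 (adjusted p = 0.65, edgeR).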
